A study of Mus musculus with 6 samples.

Results

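Solute carriers, pumps, ion channels and connexins carry ions, nutrients and small molecules across membranes or between neighbouring cells. The genes described here were found by their symbols among the genes that the authors listed as differentially expressed between WT.GFP+ and ERα−/−.GFP+ mammary epithelial cells (MECs). A gene was taken when its symbol began with Slc, Slco, Kcn, Scn, Cacn, Clca, Clcn, Clic, Ano, Aqp, Atp, Abc, Trpc, Trpm, Trpv, P2rx, Gja, Gjb or Gjc, with the digit that belongs to the family name where there is one. This gave 25 of the 651 listed genes. MECs of WT.GFP+ or ERα−/−.GFP+ donors, both on a C57Bl6 background and both carrying EGFP under an actin promoter, were placed by intraductal injection in opposite glands of NSG mice, an immunodeficient strain. GFP+ cells were sorted from the pregnant hosts and sequenced as 3 samples per genotype. The ERα−/− donors lack ERα from the germ line on. The actin promoter marks donor cells of any type, the study pooled glands to prepare cell suspensions, and the ages of the donors were not given in the sources used here.

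In the mammary gland, transporters of luminal cells move glucose, amino acids, calcium, zinc and phosphate towards milk, while P-type pumps and aquaporins set its ion and water content. Myoepithelial cells, the contractile basal layer, use potassium and calcium channels to set membrane potential and calcium entry, as smooth muscle does.

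The levels used here are the authors' means over the 3 samples of a genotype, so no spread between samples could be given and no test over samples was made from them. The authors' own test chose the listed genes, and its values were not used. Error is given here as a 95% interval of the ratio of the summed reads (exact, Clopper-Pearson), which covers counting error only and leaves out the spread between samples. Fold changes were computed from the mean counts after division by a depth of each genotype, estimated from listed genes. The estimates were 27190483 reads per WT.GFP+ sample and 29326709 per ERα−/−.GFP+ sample, and they are not totals of sequenced reads. The tables name the genotypes only as selections, and the direction of every difference rests on the paper. Esr1, which encodes ERα, was in neither table and could not check it. Mean counts are given as pairs, WT.GFP+ first and ERα−/−.GFP+ second. In bulk RNA, fewer cells of a type and less RNA per cell cannot be told apart.

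Of the 25 genes, 24 had lower levels in ERα−/−.GFP+ MECs, and 1, Kcnab2, had a higher level. Among all listed genes 86.9% were lower and 13.1% higher, so the members divided much as the listed genes did. The lower genes together held 408 CPM (mean counts scaled to a common depth) in WT.GFP+ and 124 CPM in the ERα−/− cells. Their median log2 fold change, with genes of at most 1 mean read at a floor of 3 reads per library, was −1.73, beside −1.70 over all 566 lower genes. More than 4-fold lower were 6 of the 24, beside 23.7% of all lower genes. Where both means reached 10 reads, 3 of 18 were more than 4-fold lower, beside 16.1% of the lower genes counted as well. Their median and their share of large changes lay close to those of all lower genes. The label of the group holds only in part, since no gene with an ATPase symbol was listed and the only pump was the ABC transporter Abcb11.

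**Figure D1:**
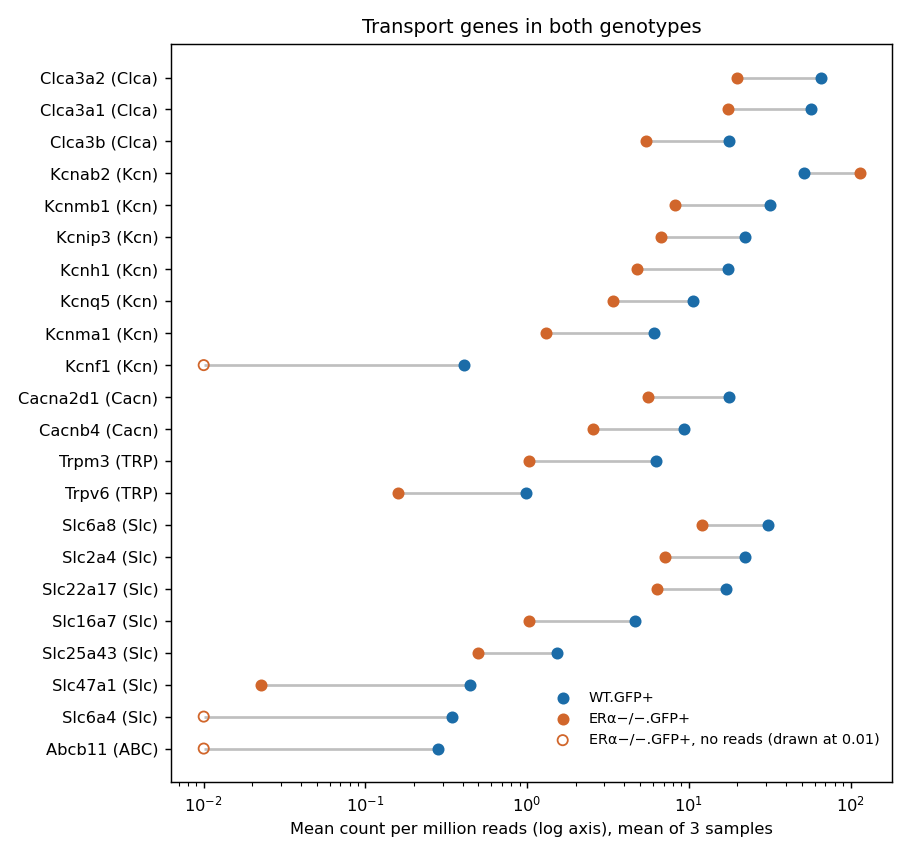
Mean level of 22 of the 25 genes, in CPM on a log axis, in WT.GFP+ (blue) and ERα−/−.GFP+ (orange), each point the mean of 3 samples and open circles genes with no reads. Each line runs to the left from WT.GFP+ except that of Kcnab2, and the genes with no reads in ERα−/−.GFP+ MECs, Kcnf1, Slc6a4 and Abcb11, were already under 1 CPM in WT.GFP+.

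The families were represented unequally. Potassium channel genes with Kcn symbols gave 7 of 94 annotated protein-coding genes and Clca genes 3 of 7. TRP channels gave 2 of 23 and calcium channel genes 2 of 26. Solute carriers, the largest family, gave 7 of 371, and ABC transporters 1 of 50. Over all families 3.36% of the annotated genes were listed, beside 2.67% of all protein-coding genes. These shares count annotated genes, expressed or not, since the number of genes tested in each family was not analysed here. No gene was listed of 86 with ATPase symbols, 14 Slco, 14 Scn, 11 Aqp, 10 Ano, 9 Clcn, 7 P2rx and 5 Clic genes. The tables hold only genes past the authors' edgeR thresholds, so these counts of 0 do not cover smaller changes, and the number at an unadjusted p under 0.05 was not analysed here.

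Clca genes encode secreted, self-cleaving proteins that modulate calcium-activated chloride currents and are not pores themselves. Clca3a1, Clca3a2 and Clca3b lie side by side on chromosome 3 (GRCm38) and were lower by nearly the same factor. Clca3a2 averaged 1775 and 579 reads and was 3.30-fold lower (95% counting interval 3.13 to 3.49). Clca3a1 went from 1547 to 509 reads, 3.28-fold lower (3.09 to 3.48). Clca3b went from 482 to 159 reads, 3.27-fold lower (2.95 to 3.64). The largest difference between any pair of them was 0.01 on the log2 scale, inside the counting error of each. Their folds also lay close to the median of all 566 lower genes, 3.26-fold, so nothing particular to the cluster can be read from them. The 3 genes held 34.3% of the reads of the 24 lower genes in WT.GFP+ MECs. The other 4 genes of the cluster, Clca4b, Clca4a, Clca1 and Clca2, were in neither table.

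Reads of 85 bases cannot always tell these copies apart. The coding sequences of Clca3a1 and Clca3a2, each of 2706 bases, were 97.1% identical in GENCODE M21, whereas Clca3b was 75.1% identical to Clca3a1 and 75.2% to Clca3a2. Of the distinct 85-base windows in their transcripts, 10.6% of those of Clca3a1 and 11.0% of those of Clca3a2 also occurred on the same strand in another gene, and 1.18% of those of Clca3b did. On the other strand, 2.23% of those of Clca3a1 and 2.24% of those of Clca3a2 occurred in another gene, and these libraries do not mark strand. How the authors assigned such reads was not stated, and the separate values of Clca3a1 and Clca3a2 are uncertain. The shares above count identical windows only, not reads and not near matches, so the size of this uncertainty was not measured. The longest run shared by both coding sequences was 242 bases, bases 902 to 1143 of each, on the minus strand of chromosome 3 between 144751979 and 144754790 in Clca3a1 and between 144810691 and 144813512 in Clca3a2, with introns in between. It is shown because no read of 85 bases inside it can be assigned to one gene.
Clca3a1 and Clca3a2, shared coding run: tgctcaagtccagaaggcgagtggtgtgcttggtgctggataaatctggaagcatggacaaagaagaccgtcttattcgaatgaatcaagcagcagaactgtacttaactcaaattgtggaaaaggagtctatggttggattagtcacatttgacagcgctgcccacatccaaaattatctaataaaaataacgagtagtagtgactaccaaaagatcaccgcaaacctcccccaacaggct

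**Figure D2:**
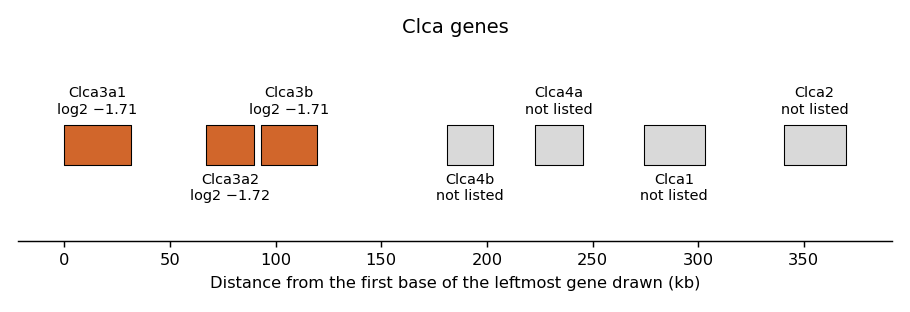
Protein-coding genes of the Clca cluster, drawn to scale by their distance in kb from the leftmost gene, with listed genes in orange and the log2 fold change of ERα−/−.GFP+ over WT.GFP+. The 3 listed genes adjoin each other at −1.71 or −1.72, beside a median of −1.70 over all lower genes, and the other 4 were not listed.

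Among the potassium channel genes, both subunits of the large-conductance calcium-activated channel were lower. This channel couples calcium to membrane potential in smooth muscle. Kcnma1, which encodes the pore, on chromosome 14 from 23289431 to 24014491, averaged 166 and 38.3 reads and was 4.66-fold lower (95% counting interval 3.80 to 5.76). Kcnmb1, the smooth-muscle beta subunit, on chromosome 11 from 33963013 to 33973641, had 867 and 240 reads and was 3.89-fold lower (3.58 to 4.23). The counting intervals of both folds overlapped. Per kilobase of exon (RPKM, CPM for each kilobase), Kcnmb1 was 21.2 times as high as Kcnma1 in WT.GFP+ and 25.4 times as high in ERα−/−.GFP+ MECs, a ratio that depends on the exon length used for Kcnma1, a gene of many transcripts. Of the distinct 85-base windows of Kcnma1, 5.08% lay in 4930519K11Rik on the other strand, and these libraries do not mark strand, so such reads cannot be told apart.

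The other listed Kcn genes, apart from Kcnab2, were lower as well. Kcnh1, which encodes an ether-à-go-go channel, averaged 476 and 140 reads and was 3.66-fold lower (95% counting interval 3.28 to 4.10). Kcnq5, which encodes a channel of slow, non-inactivating currents, had 287 and 100 reads and was 3.10-fold lower (2.71 to 3.54). Kcnip3, a calcium-binding protein that modulates Kv4 channels and also acts in the nucleus, had 606 and 198 reads and was 3.31-fold lower (3.01 to 3.63). Kcnf1, which encodes a subunit that forms no channel on its own, had a mean of 11 reads in WT.GFP+ and none in ERα−/−.GFP+ MECs. With a floor of 3 reads per library it was at least 3.95-fold lower. Of the 7 Kcn genes, 4 encode pore subunits (Kcnf1, Kcnh1, Kcnma1 and Kcnq5), all of them lower, and 3 encode accessory proteins, of which Kcnmb1 and Kcnip3 were lower and Kcnab2 was higher.

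Kcnab2 encodes the beta 2 subunit of Kv1 channels, a cytoplasmic protein related to aldo-keto reductases that is found in neurons and in leukocytes. Located at chr4:152390742-152477871, it averaged 1406 and 3341 reads, 2.20-fold higher (95% counting interval 2.13 to 2.28). Its log2 fold change of 1.14 had rank 19 among the 85 higher genes, whose median was 1.05. Per kilobase of exon it had the highest level of the 25 genes in ERα−/−.GFP+ MECs, at 20.4 RPKM, and 9.27 in WT.GFP+ MECs. Of all protein-coding genes 2.67% were in either table, and of all listed genes 13.1% were higher. Of a list of 20 T and NK cell genes, 11 were listed and all were higher. Their log2 fold changes ran from 1.03 to 1.45, with a median of 1.12. The listed ones, Gzmb, Nkg7, Coro1a and Trbc1 among them, summed to 3303 CPM in WT.GFP+ and 7358 CPM in the ERα−/− cells. The rest, Cd3d, Cd3e, Cd3g, Cd4, Cd8a, Trac, Trbc2, Gzma and Ptprc, were in neither table. The antibodies that the study used in flow cytometry included anti-CD45, a leukocyte marker, but whether this gate was applied in the sort for RNA was not stated. The part of these genes in the level of Kcnab2 was not tested. Rnf207, the listed gene nearest to Kcnab2 at 71.7 kb, was lower.

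Of the calcium channel genes, both listed ones encode accessory subunits that set trafficking and gating of voltage-gated channels. Cacna2d1, the alpha 2 delta 1 subunit, averaged 480 and 163 reads and was 3.17-fold lower (95% counting interval 2.86 to 3.52). Cacnb4, the beta 4 subunit, had 253 and 74.7 reads and was 3.66-fold lower (3.15 to 4.27), and 14.1% of its 85-base windows also lay in A430018G15Rik on the other strand. No pore gene with a Cacna1 symbol was listed. The counting intervals of both subunits overlapped.

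TRP channels are cation channels of the plasma membrane, and both listed genes were lower. Trpm3, a heat- and steroid-activated channel gene on chromosome 19 from 22139046 to 22995410, averaged 170 and 30 reads and was 6.10-fold lower (95% counting interval 4.87 to 7.72). Trpv6, the calcium-selective channel of absorbing epithelia, had only 26.7 and 4.67 reads and was 6.16-fold lower (3.47 to 11.8). On the authors' mean log2 CPM, the log2 fold change of Trpm3 was −2.32 and not −2.61, the widest gap between both scales among the members with at least 10 reads in both means. The counting interval of Trpm3 overlapped those of Kcnma1 and Slc16a7 and did not overlap those of the Clca genes and Kcnmb1, which says nothing of the spread between samples.

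**Figure D3:**
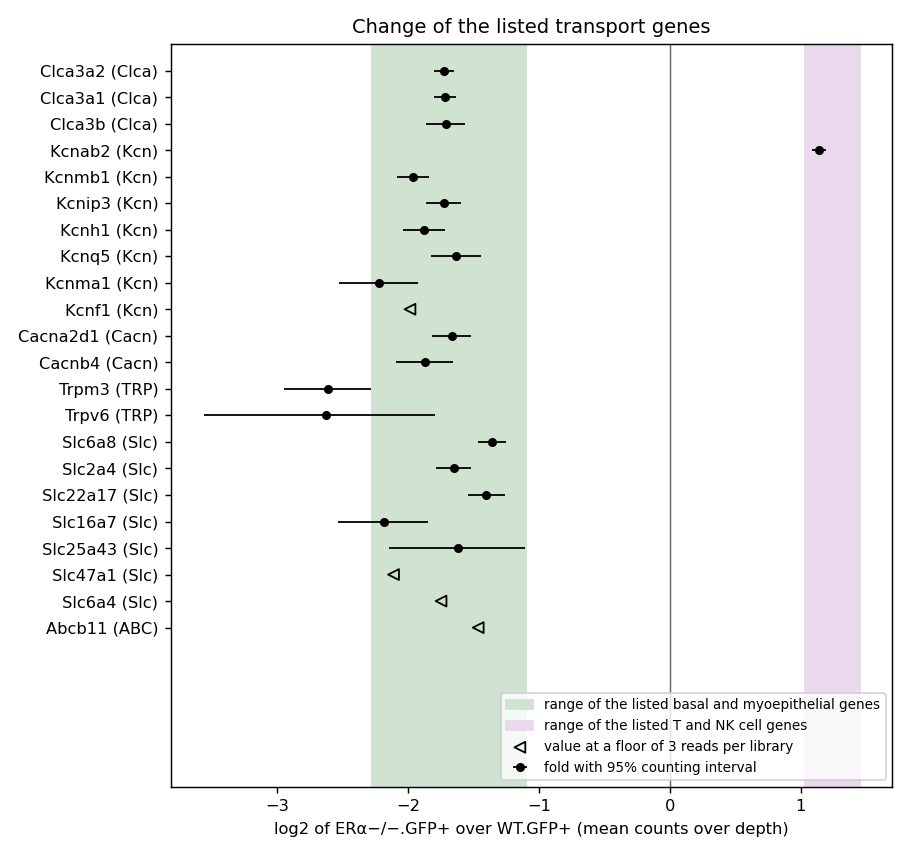
Log2 fold change of ERα−/−.GFP+ over WT.GFP+ for 22 of the 25 genes, with 95% counting intervals as bars, open triangles for values at a floor of 3 reads per library, and shaded ranges of the listed basal and T and NK cell genes. Most lower genes lie inside the basal range, as 91.2% of all well-counted lower genes did, Trpm3 and Trpv6 lie to its left at −2.61 and −2.62 (the bar of Trpv6 reaches into it), and Kcnab2 at 1.14 lies inside the T and NK cell range, as 61.2% of all higher genes did.

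The solute carriers comprised 7 genes of different cargo, all lower. Slc6a8, the creatine transporter, was the one with the most reads, averaging 836 and 352 reads, and had the smallest fold of the group at 2.56 (95% counting interval 2.38 to 2.75). Slc2a4, the insulin-responsive glucose transporter of muscle and fat on chromosome 11 from 69942539 to 69948188, had 608 and 209 reads and was 3.13-fold lower (2.86 to 3.44). Slc22a17, the lipocalin 2 receptor, had 459 and 188 reads and was 2.64-fold lower (2.39 to 2.91). The folds of Slc6a8 and Slc22a17 were smaller than the median of all lower genes, 3.26-fold, and their counting intervals overlapped. Slc16a7, a monocarboxylate transporter with high affinity for pyruvate and lactate, had 126 and 30 reads and was 4.54-fold lower (3.60 to 5.78). Slc25a43, an orphan carrier of the mitochondrial family, had 41.7 and 14.7 reads and was 3.06-fold lower (2.16 to 4.42). The folds of Slc2a4 and Slc25a43 were also below 3.26, but their counting intervals hold that value.

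A further 3 transporter genes averaged few reads in both genotypes. Slc6a4, the serotonin transporter, had a mean of 9.33 reads in WT.GFP+ MECs and Abcb11, the bile salt export pump of the liver, 7.67, and both had no reads in ERα−/−.GFP+ MECs. Against a floor of 3 reads per library they were at least 3.36-fold and at least 2.76-fold lower. Slc47a1, a multidrug and toxin extruder, averaged 12 and 0.667 reads, the latter a sum of 2 reads over 3 samples, and its ratio of 19.4 had a counting interval from 4.998 to 166. In the medians and in the plot of fold changes it stands at the floor of 3 reads, at 4.31-fold lower.

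**Figure D4:**
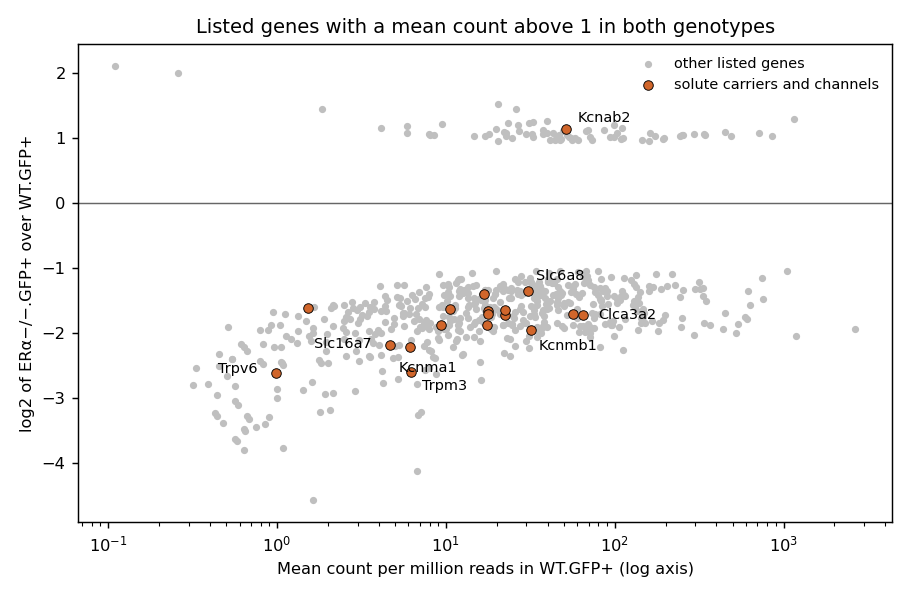
Log2 fold change of ERα−/−.GFP+ over WT.GFP+ against the mean level in WT.GFP+ (CPM, log axis) for listed genes with a mean count above 1 in both genotypes, with the transport genes described here in orange. The orange points lie among the grey ones up to 65.3 CPM, the level of Clca3a2, above which all points are grey. Kcnab2 is the orange point in the upper band.

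Transporters known from milk secretion were looked for in a list of 32 genes that included Slc2a1, Slc34a2, Slc30a4, Slc12a2, Slc7a5, Atp2b2, Atp2c2, Aqp3, Aqp5 and Abcg2. Of these, 0 were in either table, which covers only changes past the authors' edgeR thresholds. Of 37 genes of ion transport in smooth muscle and myoepithelium, 4 were listed and lower, Kcnma1, Kcnmb1, Kcnq5 and Cacna2d1, and none was higher. These counts stand beside 2.67% of all protein-coding genes in either table and 86.9% of the listed genes lower, and nothing particular to a list of this size can be read from them. Among 140 channel, pump and accessory genes outside the symbol pattern, 1 was listed, the glycine receptor beta subunit Glrb, at 170 and 42.3 reads and 4.32-fold lower (95% counting interval 3.55 to 5.29).

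Markers of basal and myoepithelial cells were lower in the same samples. Of a list of 21 such genes, 19 were listed and all were lower. In comparison, 2.67% of all protein-coding genes were in either table, and 86.9% of all listed genes were lower. The 19 markers had a median log2 fold change of −1.87 and a range from −2.27 for Col17a1 to −1.10 for Lamb3. They summed to 8594 CPM in WT.GFP+ and 2339 CPM in the ERα−/− cells, and the other 2, Itga6 and Itgb4, were in neither table. Of the 18 lower transport genes whose means both reached 10 reads, 17 had a fold inside that range, and the other was Trpm3. Of all 479 lower genes counted as well, 91.2% lay inside it too, so the count of the transport genes was near this background. Which cells express the transport genes was not measured, and the part of the basal markers in their levels was not tested. Of 18 luminal genes 1 was listed, Pgr, as lower, and of 14 milk genes, 10 B and myeloid cell genes and 10 genes of stroma, endothelium and fat none was listed.

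Among the genes described here, the order of levels per kilobase of exon in WT.GFP+ MECs began with Clca3a2 at 16.4 RPKM and Clca3a1 at 14.6. Kcnab2, Kcnmb1, Slc2a4, Kcnip3, Slc6a8 and Clca3b followed between 9.27 and 5.28. The lowest were Kcnf1, Slc6a4 and Abcb11, under 0.1 RPKM. Without the spread between samples, it cannot be said which neighbours in this order differ. With the longest transcript in place of all exons, Trpm3 moved by the largest factor, from 0.255 to 0.507.

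The RefSeq promoter table held 26 windows of 18 of the 25 genes, each of 300 bases around a start. The palindromic oestrogen response element, GGTCA and TGACC with any 3 bases between, occurred in none of them, and in 0.0700% of all 32851 windows. Its half-site GGTCA, searched on both strands, occurred in 9 of the 26 windows, or 34.6%, beside 40.5% of all windows. The genes were Abcb11, Cacnb4, Clca3b, Kcnab2, Kcnf1, Kcnh1, Kcnq5, Trpm3 and Trpv6. The CArG box, which serum response factor binds in smooth-muscle genes, occurred in none of the 26 windows and in 1.63% of all windows. The E-box CAGGTG occurred in 2 of the 26 windows (20.2% of all windows), TATAAA in none (13.6%) and GGGCGG in 10 (35.7%). A match describes these letters only, and ERα also binds far from promoters.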

How the data were processed

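Libraries of sorted GFP+ cells, 3 per genotype, were read from one end over 85 bases. The library kits do not mark strand. The authors aligned the reads to mm10 with HTSstation, kept the top 90% of expressed genes in ASAP and compared the genotypes with edgeR. The counter, the annotation and the use of strand were not given in the sources used here. The deposited tables list genes past the authors' thresholds (more than 2-fold, FDR under 0.05). The deposited estimated counts are the authors' means per genotype. Each mean times 3 was rounded to a whole number of reads, and how far it lay from one before rounding was not checked. The deposited log2 values are the authors' mean log2 CPM. The tables also hold the authors' fold changes, p-values and FDR, which were not used. The selections were assigned to genotypes by the direction the paper states.

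Depth was estimated as the median of mean count over the CPM given by the mean log2 CPM. It was taken over listed genes averaging 1000 reads or more (220 genes for WT.GFP+, 140 for ERα−/−.GFP+). For fold changes in medians and plots, mean counts of at most 1 were set to a floor of 3 reads per library. Genes with 0 reads are given as bounds at that floor, and Slc47a1, with reads in both genotypes, by its own ratio. Folds and intervals were tested on simulated data, drawn with counting error only at these depths, for genes averaging at least 10 reads in WT.GFP+. The simulation held no spread between samples and was not set up to check the floor. No test over samples was made, since only means per genotype were used. GENCODE M21 (GRCm38, the same assembly as mm10) matched all 25 genes and 650 of the 651 listed. matplotlib 3.10.9, scipy 1.17.1, pandas 2.3.3, numpy 2.4.6 and Python 3.11.15 were used. Some members and sequences are not reported here, though counts over all 25 genes include them. By rule every other member was named, and full values were due to each higher member, to the 3 with the highest mean count and the 3 with the largest fold among solute carriers, ion channels, pumps and connexins, and to members averaging at most 1 read in a genotype. Alternatives were another scale, depth, floor, count minimum, fold, gene list and exon length. The members, gene lists and motifs were chosen with earlier results of these data known, and the motifs and the Clca coding comparison after their values were seen.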

Additional observations from a re-analysis of the deposited data

How the results depend on the processing

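The number of lower genes was 18 where both means reached 10 reads, 17 with a mean count of at least 100 in the higher genotype, 25 with the list of other channel and accessory genes and 23 without organelle transporters, beside 24, and Kcnab2 stayed the higher gene in each. At a recomputed change of more than 4-fold, 6 lower and 0 higher genes were left. With equal depth in both genotypes, the median log2 fold change was −1.63 for the lower transport genes and −1.59 for all lower genes, and with a mean count of at least 100 in the higher genotype it was −1.61 for all lower genes. No gene changed direction under another scale, depth or floor. Since every listed gene had passed the authors' 2-fold threshold, this could hardly be otherwise and is no check of the directions. For Kcnf1, Slc6a4, Abcb11 and Slc47a1 the fold depends on the floor. On the authors' mean log2 CPM, the 19 genes averaging 10 reads or more in both genotypes moved by at most 0.29. Leaving out single replicates needs values per sample and was not run. No paired analysis was possible because the columns are means per genotype and the labels share only replicate number 2.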
